A study of Homo sapiens with 6 samples.

Results

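The genes described here are 9 that bear on the brakes of the cell cycle: the CIP/KIP inhibitors CDKN1A, CDKN1B and CDKN1C, the INK4 inhibitors CDKN2A, CDKN2B, CDKN2C and CDKN2D, the CDK-binding phosphatase gene CDKN3, and MTAP, which lies beside CDKN2A on chromosome 9. They were taken by symbol from the deposited table, and all 9 were found among its 16197 genes. Panc1, an established cell line derived from a pancreatic carcinoma, had been given either the solvent DMSO (3 libraries) or BRQ (3 libraries), read here as brequinar since the title of the series speaks of DHODH inhibition. DHODH is a mitochondrial enzyme of pyrimidine synthesis. Both groups grew in DMEM with fetal bovine serum, and neither the dose of BRQ nor the length of treatment is known here. The labels do not tell whether libraries stem from different cultures, and the p-values below therefore describe the variation among libraries, possibly technical. In bulk RNA, fewer cells of a kind and less RNA per cell cannot be told apart.

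Cyclin-dependent kinases (CDKs) drive cells from G1 into DNA synthesis and mitosis. INK4 proteins bind CDK4 and CDK6 and keep them from D-type cyclins, while CIP/KIP proteins bind CDK-cyclin complexes, above all those of CDK2. CDKN2A is unusual in coding for 2 unrelated proteins from separate first exons: p16, which inhibits CDK4 and CDK6, and ARF, which binds and restrains the ubiquitin ligase MDM2. Loss of the CDKN2A locus is one of the commonest lesions of pancreatic cancer, and MTAP is often lost with it.

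The data showed an uneven response of these genes. CDKN2A RNA was 29.8% lower in BRQ than in DMSO, while its neighbour CDKN2B was 31.2% higher, CDKN2C 41.4% higher and CDKN1A 13.6% higher, as changes of the mean FPKM (fragments scaled to gene length in kilobases and to the library's total). Of the 8 members tested, 3 rose, 1 fell and 4 did not pass. Over all 10689 genes tested, 62.1% passed, 36.9% as higher and 25.2% as lower, so the share of members that passed was no larger than that of genes at large. The excess of rises depended on scaling, with 3392 genes higher and 3217 lower under median-of-ratios scaling and 3382 and 3162 under TPM scaling, against 3946 and 2692. The median log2 fold change was 0.07 over the 8 members and 0.06 over all tested genes. Genes were tested if their mean over the 6 libraries was at least 1 FPKM, with limma on log2(FPKM + 1), a scale that understates changes of low genes. A gene passed at a Benjamini-Hochberg adjusted p under 0.05. Values below are FPKM, with mean ± SD (n = 3 a group), and log2 fold changes are BRQ over DMSO ± SE.

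**Figure D1:**
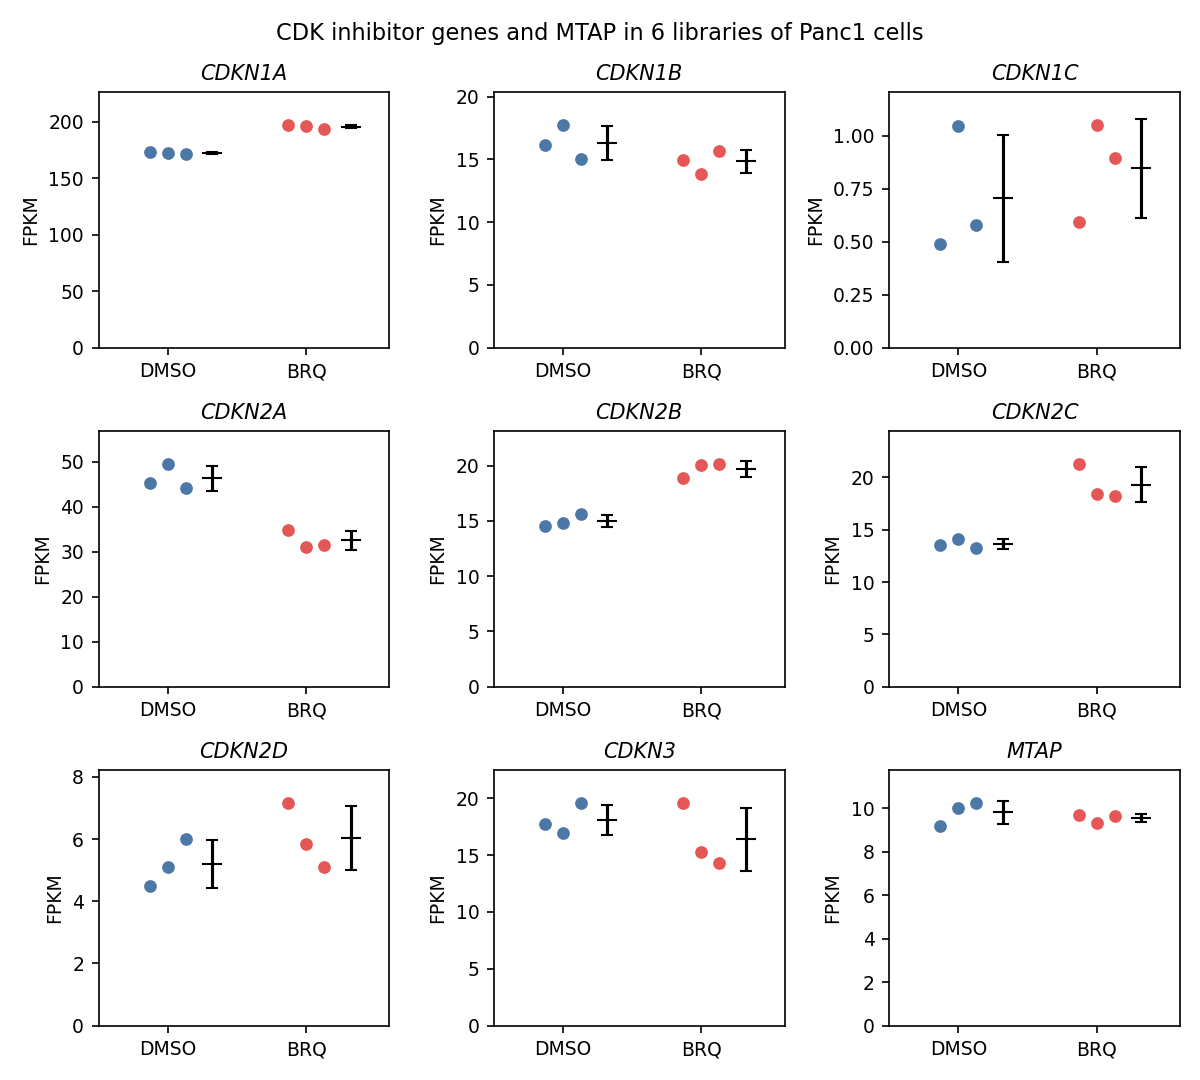
FPKM of each gene (vertical axes, from 0) in the 3 DMSO and 3 BRQ libraries, with replicates 1 to 3 from left to right. Points are libraries, and the black bar beside them is the mean with its SD. CDKN1A, CDKN2B and CDKN2C have every BRQ point above every DMSO point, CDKN2A has every BRQ point below, and the other 5 overlap. Over all tested genes, 67.2% had groups that did not overlap.

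The cells carried abundant CDKN2A RNA, whereas Panc1 is generally described as having lost this gene. Fragments counted to CDKN2A numbered 6835, 7313 and 6734 in DMSO libraries 1, 2 and 3 and 5486, 4931 and 5028 in BRQ libraries 1, 2 and 3. MTAP and CDKN2B, on either side of it, were present in every library too. The labelled line and this locus thus stand against each other in these libraries. Cell identity was not tested. Each of the 7 epithelial markers chosen (KRT7, KRT8, KRT18, KRT19, EPCAM, CDH1 and SOX9) exceeded a mean of 1 FPKM. Their summed level was 2395 to 2517 FPKM in DMSO and 2239 to 2381 in BRQ. KRT8, KRT18 and KRT19 made up most of this sum, while KRT7 and CDH1 were low (means of 1.27 and 5.04 FPKM over the 6 libraries). Endothelial markers were near 0 (summed level at most 0.260 FPKM in any library). Of 5 acinar or islet markers only 1, PRSS1, was in the deposited table, and it too was near 0. Of 5 fibroblast markers LUM alone passed 1 FPKM (summed level 52.0 to 55.5 FPKM in DMSO and 77.6 to 83.8 in BRQ). The summed level of the mesenchymal markers was 1866 to 1918 FPKM in DMSO and 871 to 909 in BRQ. VIM made up nearly all of it (1870 ± 28.2 FPKM in DMSO and 880 ± 20.5 in BRQ). ZEB1 stood at 16.5 ± 0.683 and 6.14 ± 0.275 FPKM, and CDH2 was near 0. The part of these marker shifts in the members' changes was not tested. Haemoglobin RNA was high in BRQ libraries 1 and 2 (HBB at 64.2 and 32.8 FPKM, against 0.739 in BRQ library 3 and at most 0.677 in DMSO). Of the other blood markers, PTPRC was at most 0.153 FPKM in any library, while CD68, a lysosomal protein gene used as a macrophage marker, rose from 106.9 ± 3.09 to 158.3 ± 4.89 FPKM (limma adjusted p = 1.11e-06). Each member was therefore also fitted without those libraries.

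Library depth could be worked out from the deposited values, because FPKM are whole fragments divided by a fixed gene length and a library total. Whole numbers that gave the deposited values, within a tolerance of 0.001, were found for all 16197 genes. The totals came to 31993869 to 34462019 fragments a library, and they were larger in each BRQ library than in each DMSO library. Behind the members stood between 31 fragments (CDKN1C in DMSO library 1) and 18269 (CDKN1A in BRQ library 2). Counting error alone was 0.742% to 0.811% of the mean for CDKN1A, 1.20% to 1.39% for CDKN2A and 13.3% to 15.02% for CDKN1C. These errors cover counting only and not differences between cultures.

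CDKN2A and CDKN2B are related genes that arose by duplication. Over all their transcripts, 31 of the 4550 stretches of 50 bases in CDKN2A were also found in CDKN2B, and none of 100 bases. The antisense gene CDKN2B-AS1 overlaps CDKN2A exons over 341 bases on the opposite strand. Whether counting used strand was not given in the sources used here, so reads of the pair over those bases cannot be told apart. CDKN1A likewise overlaps the antisense RNA DINOL over 146 bases, and MTAP shares 9.24% of its 50-base stretches with other genes, most often the overlapping ERVFRD-3. No 50-base stretch of CDKN1B, CDKN1C, CDKN2C, CDKN2D or CDKN3 was found in another gene.

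CDKN2A, which lies on chromosome 9 from 21967753 to 21995301 (GRCh38, minus strand), stood at 45.3, 49.4 and 44.2 FPKM in DMSO libraries 1, 2 and 3. In BRQ libraries 1, 2 and 3 it stood at 34.9, 31.0 and 31.5 FPKM. The highest BRQ library was well below the lowest DMSO library. The mean fell from 46.3 ± 2.73 to 32.5 ± 2.13 FPKM (log2 fold change -0.50 ± 0.06, limma adjusted p = 3.19e-05). The fall lay among the larger decreases, since only 6.18% of tested genes had a lower or equal log2 fold change. It passed under all 17 alternatives tried, with adjusted p from 2.81e-07 to 0.00148. One value covers both p16 and ARF, and which transcript fell cannot be read from it.

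CDKN2B, which codes for the INK4 inhibitor p15 and lies 14.1 kb further along (chromosome 9, 22002903 to 22009363, minus strand), moved the other way. It was measured at 14.6, 14.8 and 15.7 FPKM in the DMSO libraries and at 18.9, 20.1 and 20.1 in the BRQ libraries. No BRQ value reached down to the DMSO values. Its mean rose from 15.001 ± 0.575 to 19.7 ± 0.694 FPKM (log2 fold change 0.37 ± 0.05, limma adjusted p = 1.32e-04). In each library CDKN2A exceeded CDKN2B, and the ratio of their FPKM does not depend on the scaling of the library. That ratio was 3.11, 3.34 and 2.82 in DMSO and 1.85, 1.55 and 1.57 in BRQ. The groups did not overlap (3.09 ± 0.260 against 1.65 ± 0.169, exact two-sided permutation p = 0.1, the smallest that 3 against 3 can give). For the FPKM of single genes, groups that did not overlap were seen in 67.2% of all tested genes. No such share was worked out for ratios.

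MTAP, the phosphorylase that starts the salvage of methionine from methylthioadenosine, lies on the other side of CDKN2A (chromosome 9, 21802543 to 21937651, plus strand). It stood at 9.18, 10.0 and 10.2 FPKM in DMSO and at 9.70, 9.34 and 9.64 in BRQ. The groups overlapped, and the difference did not pass (log2 fold change -0.03, 95% interval -0.17 to 0.10, limma adjusted p = 0.662). MTAP spans 135109 bases, and when each library's trend with genomic span was removed its log2 fold change turned to 0.17 and passed (adjusted p = 0.0337). Over the 17 alternatives the adjusted p ran from 0.0337 to 0.968. The ratio of CDKN2A to MTAP was 4.94, 4.94 and 4.33 in DMSO and 3.60, 3.32 and 3.27 in BRQ, again with no overlap (exact two-sided permutation p = 0.1).

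**Figure D2:**
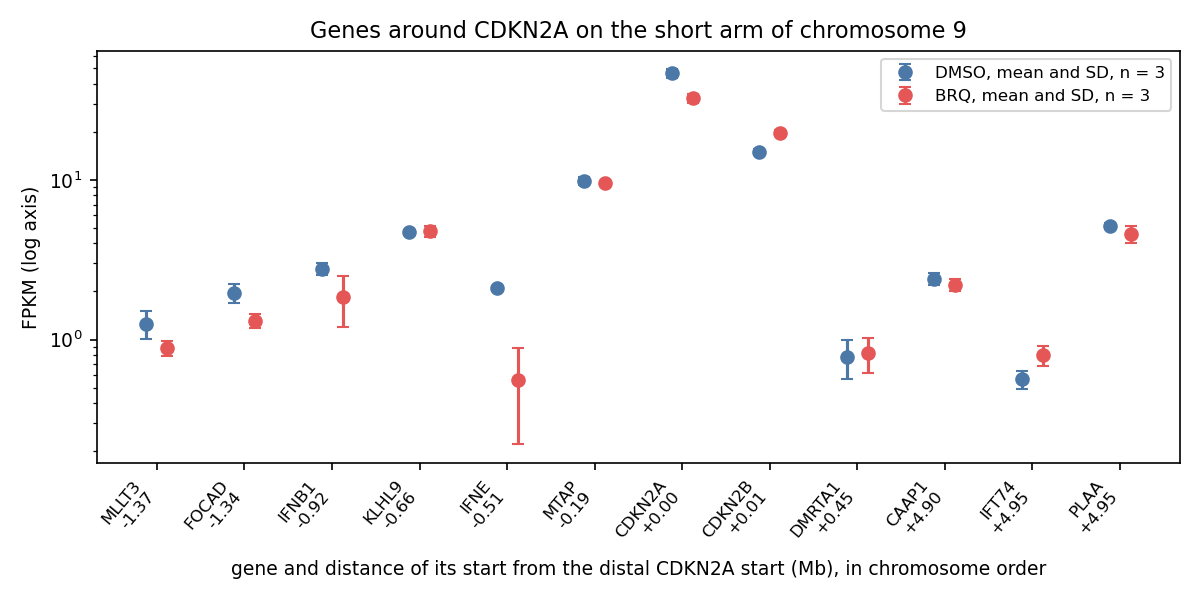
Mean FPKM (log axis) with SD over 3 libraries for genes around CDKN2A with a mean of at least 0.1 FPKM, in chromosome order, with the distance of each gene's start from the distal CDKN2A start in Mb. CDKN2A is the highest and lower in BRQ, CDKN2B beside it is higher in BRQ, and the MTAP libraries of the 2 groups overlap.

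Of 17 further genes named around the locus, 11 were in the table and 7 were tested, of which 4 passed as lower and none as higher. That is 57.1% of those tested, no larger than the 62.1% of all tested genes. The filter bears on the directions, as IFNE and MLLT3 had BRQ means under 1 FPKM and were tested through their DMSO values. With no filter, 2 of 11 passed as lower and 1 as higher, and 6654 of all 16197 genes passed. IFNE, an epithelial interferon gene at -0.513 Mb from the distal CDKN2A start, fell from 2.10 ± 0.0413 to 0.555 ± 0.334 FPKM (log2 fold change -1.02 ± 0.14, limma adjusted p = 9.61e-05). Its log2 fold change was -1.91 with a pseudocount of 0.1 and -2.13 with voom. IFNB1, the interferon beta gene, fell from 2.76 ± 0.241 to 1.85 ± 0.654 FPKM (adjusted p = 0.0273), a call lost in 6 of 16 alternatives; without BRQ library 1 the log2 fold change was -0.23 (adjusted p = 0.0638). FOCAD fell from 1.95 ± 0.265 to 1.31 ± 0.125 FPKM (adjusted p = 0.00759) and MLLT3 from 1.26 ± 0.256 to 0.883 ± 0.0911 (adjusted p = 0.0487). Removing each library's trend with genomic span turned both directions (to 0.053 and 0.10 as log2 fold changes), and the MLLT3 call was lost in 9 of 16 alternatives. With voom the log2 fold changes of FOCAD and MLLT3 were -0.57 and -0.50. KLHL9 (4.69 ± 0.163 and 4.79 ± 0.382 FPKM in DMSO and BRQ), CAAP1 (2.41 ± 0.219 and 2.19 ± 0.190) and PLAA (5.14 ± 0.200 and 4.601 ± 0.573) did not pass, though PLAA passed as lower without BRQ library 1 (log2 fold change -0.22, adjusted p = 0.0298). DMRTA1, the next protein-coding neighbour beyond CDKN2B, was at 0.777 ± 0.212 and 0.821 ± 0.202 FPKM, IFT74 at 0.564 ± 0.0717 and 0.796 ± 0.117, and HACD4 and TUSC1 were below 0.01 FPKM in both group means. These 4 were under the level needed for a test.

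Starts of CDKN2A and CDKN2B are shown because the RNA of these neighbours moved in opposite directions. A start of CDKN1A, on chromosome 6, is shown beside them. Which CDKN2A start the fall stems from cannot be read from the values, and its proximal start is not shown. The 250 bases before each RefSeq start (GRCh38.p14) were searched on both strands, and below they are cut where an exon of the gene begins in GENCODE 29. Capitals mark GC boxes (GGGCGG). The distal CDKN2A start, from which ARF is made, is preceded by chr9:21995325-21995574 (minus strand), CDKN2B by chr9:22009364-22009555 (minus strand) and CDKN1A by chr6:36678464-36678657 (plus strand).
CDKN2A, distal start: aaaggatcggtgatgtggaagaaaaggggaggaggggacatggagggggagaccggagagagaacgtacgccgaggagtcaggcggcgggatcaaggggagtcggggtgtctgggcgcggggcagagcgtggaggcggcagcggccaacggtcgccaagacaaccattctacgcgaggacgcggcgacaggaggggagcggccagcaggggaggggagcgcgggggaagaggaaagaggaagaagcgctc
CDKN2B: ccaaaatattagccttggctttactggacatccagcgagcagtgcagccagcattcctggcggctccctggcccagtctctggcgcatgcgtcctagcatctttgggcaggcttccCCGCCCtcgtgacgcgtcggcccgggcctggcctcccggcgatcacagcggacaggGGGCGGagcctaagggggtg
CDKN1A: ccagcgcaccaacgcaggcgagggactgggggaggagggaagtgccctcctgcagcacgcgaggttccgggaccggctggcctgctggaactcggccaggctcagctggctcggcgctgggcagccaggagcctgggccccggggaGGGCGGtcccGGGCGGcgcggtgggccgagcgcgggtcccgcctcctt
The RefSeq table held 11 starts for 8 of the 9 members, CDKN1C being the other. In their full windows of 250 bases, the 3 CDKN2C starts held 0, 5 and 1 GC boxes, CDKN1A 4, CDKN2B, CDKN2D and MTAP 2 each, CDKN1B 1, CDKN3 0, the proximal CDKN2A start (that of p16) 1 and the distal one 0, and 42.6% of all 35116 windows of that length held at least 1. None of the 11 windows held an E2F match (TTTNGCGC, found in 1.51% of all windows), and 1, that of MTAP, held TATAAA (10.7%). CCAAT was found before CDKN1B, CDKN3, CDKN2D, MTAP and 1 CDKN2C start, against 32.0% of all windows. These matches describe the letters of the windows alone.

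CDKN2C, which codes for p18 (chromosome 1, 50960745 to 50974633, plus strand), had the largest relative increase of the members. It was measured at 13.5, 14.2 and 13.3 FPKM in the DMSO libraries and 21.2, 18.4 and 18.2 FPKM in the BRQ libraries. All BRQ values were higher than all DMSO values, and BRQ library 1 was the highest. The mean rose from 13.7 ± 0.452 to 19.3 ± 1.69 FPKM (log2 fold change 0.47 ± 0.06, limma adjusted p = 1.06e-04), and the call held under all 17 alternatives (adjusted p 3.72e-05 to 0.00236). CDKN2C and CDKN2B stood at similar levels in both groups, with a ratio of CDKN2B to CDKN2C of 1.10 ± 0.0709 in DMSO and 1.03 ± 0.120 in BRQ (exact two-sided permutation p = 0.6).

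CDKN2D, which codes for the remaining INK4 inhibitor p19 (chromosome 19, 10566462 to 10569059, minus strand), was lower and more variable. Its values were 4.50, 5.09 and 6.01 FPKM in DMSO and 7.15, 5.86 and 5.11 in BRQ, on 209 to 346 fragments. The groups overlapped, and the difference did not pass (log2 fold change 0.18, 95% interval -0.07 to 0.43, limma adjusted p = 0.191). Without BRQ libraries 1 and 2 the log2 fold change was -0.014 (adjusted p = 0.942). Summed over the INK4 genes, the level was 80.2 ± 2.88 FPKM in the DMSO libraries and 77.5 ± 4.07 FPKM in the BRQ libraries, with overlap (exact two-sided permutation p = 0.5). The weight of each gene in this sum depends on the gene length used. With the length of the longest coding transcript, CDKN2A stood at 167 in DMSO and 117 in BRQ. CDKN2B then stood at 15.3 and 20.1, CDKN2C at 10.3 and 14.5, and CDKN2D at 5.21 and 6.05. In group means the fall of CDKN2A exceeded the rises of the other INK4 genes together on both sets of lengths. It did so by more on those of the longest coding transcripts. CDKN2A made up 17.2% ± 0.726 of the summed FPKM of the 7 CIP/KIP and INK4 genes in DMSO and 11.3% ± 0.539 in BRQ. The size of these shares depends on the lengths in the same way.

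CDKN1A, the p21 gene (chromosome 6, 36676460 to 36687339, plus strand), was the most abundant of the 9 in FPKM. It stood at 172.8, 172.1 and 171.2 FPKM in DMSO libraries 1, 2 and 3 and at 196.7, 195.7 and 193.9 in BRQ libraries 1, 2 and 3. Libraries of a group differed by no more than counting error, with an SD of 0.483% of the mean in DMSO and 0.724% in BRQ. The rise from 172.0 ± 0.832 to 195.4 ± 1.42 FPKM was small but lay outside that spread (log2 fold change 0.18 ± 0.03, limma adjusted p = 9.33e-04). By signed log2 fold change, 63.8% of tested genes were lower than or equal to CDKN1A. Its value lay between the quartiles of all tested genes, -0.18 and 0.30. With the trend with genomic span removed the log2 fold change was 0.077 (adjusted p = 0.0504), which ended the call, and the other 16 alternatives kept it. CDKN1A made up 63.9% ± 1.02 of the summed FPKM of the 7 inhibitors in DMSO and 67.7% ± 0.832 in BRQ (exact two-sided permutation p = 0.1, groups without overlap). The size of this share depends on the gene lengths used. With those of the longest coding transcripts, CDKN1A stood at 206 in DMSO and CDKN2A at 167.

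CDKN1B, the p27 gene (chromosome 12, 12715058 to 12722371, plus strand), was measured at 16.2, 17.7 and 15.03 FPKM in DMSO and 14.95, 13.9 and 15.7 in BRQ. DMSO library 3 lay within the range of the BRQ libraries. The difference from 16.3 ± 1.35 to 14.8 ± 0.919 FPKM did not pass (log2 fold change -0.13, 95% interval -0.28 to 0.03, limma adjusted p = 0.134). It passed as lower with median-of-ratios, TPM or trimmed-mean scaling (log2 fold change -0.18 in each, adjusted p 0.0370 to 0.0427) and with the span trend removed (-0.23, adjusted p = 0.0117). The ratio of CDKN1A to CDKN1B, which no scaling alters, was 10.7, 9.71 and 11.4 in DMSO and 13.2, 14.1 and 12.3 in BRQ, so every BRQ ratio exceeded every DMSO ratio (exact two-sided permutation p = 0.1).

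CDKN1C, the imprinted p57 gene (chromosome 11, 2883213 to 2885773, minus strand), was barely expressed, at 0.490, 1.05 and 0.579 FPKM in DMSO and 0.592, 1.05 and 0.897 in BRQ. These values came from 31 to 70 fragments a library. Its mean lay under the level set for a test. In a fit with no filter its log2 fold change was 0.12 (adjusted p = 0.575), and a difference of this size was not detectable with this spread (an SD of 42.4% of the mean in DMSO, against a counting error of 15.02%). Of its imprinted neighbours, PHLDA2 rose from 165 ± 13.6 to 323 ± 4.95 FPKM (log2 fold change 0.97 ± 0.05, limma adjusted p = 2.20e-07), while SLC22A18 did not pass (9.83 ± 1.26 and 8.69 ± 1.06 FPKM). NAP1L4, next along, rose slightly, from 30.0 ± 0.473 to 32.9 ± 0.275 FPKM (adjusted p = 0.0219), a call lost in 7 of 17 alternatives. KCNQ1 and IGF2 were under 0.3 FPKM in both group means.

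CDKN3, whose protein removes the activating phosphate from CDK2 and CDK1 (chromosome 14, 54396849 to 54420218, plus strand), stood at 17.7, 16.9 and 19.5 FPKM in DMSO and 19.5, 15.2 and 14.3 in BRQ. BRQ library 1 lay with the DMSO libraries and the other BRQ libraries below all of them. The difference did not pass (log2 fold change -0.14, 95% interval -0.36 to 0.07, limma adjusted p = 0.223). Without BRQ library 1 it passed as lower (log2 fold change -0.27, adjusted p = 0.00650), and it also passed without BRQ libraries 1 and 2 (-0.31, adjusted p = 0.0147). Of the 3 BRQ libraries, library 1 also gave the highest values of CDKN1A, CDKN2A, CDKN2C, CDKN2D and MTAP and of HBB, and the part of this in the results was not tested beyond the fits without it.

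**Figure D3:**
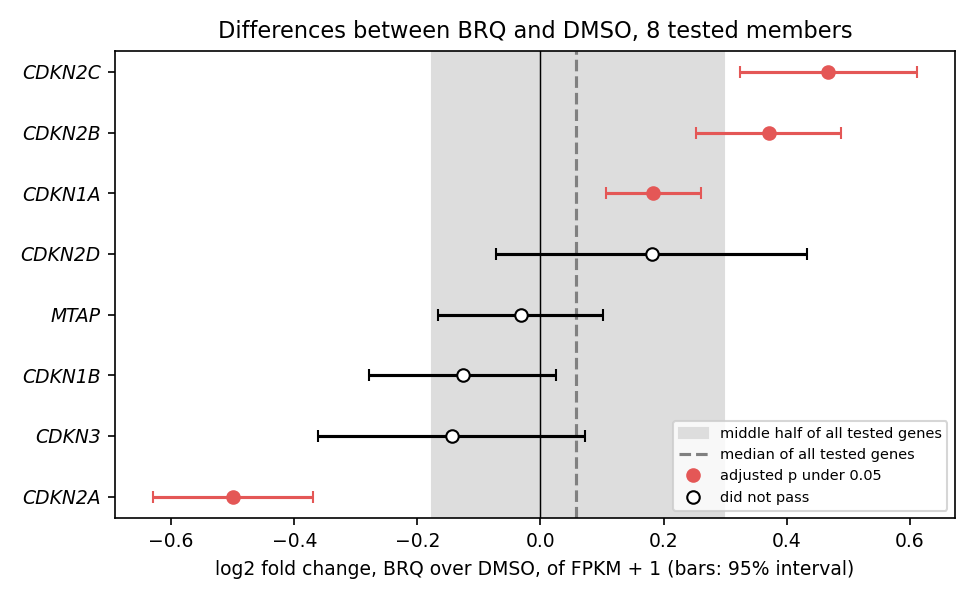
Log2 fold change, BRQ over DMSO, on the FPKM + 1 scale for the 8 tested members, with 95% intervals from limma. Filled red points passed an adjusted p of 0.05, open points did not, the grey band is the range between the quartiles of all tested genes and the dashed line their median of 0.06. CDKN2A lies left of the band, CDKN2B and CDKN2C right of it, and CDKN1A within it.

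The order of levels depends on the gene length used. In DMSO the FPKM order was CDKN1A (172.0), CDKN2A (46.3), CDKN3 (18.1), CDKN1B (16.3), CDKN2B (15.001), CDKN2C (13.7), MTAP (9.80), CDKN2D (5.20) and CDKN1C (0.706). The ranges of CDKN3 and CDKN1B overlapped, as did those of CDKN1B and CDKN2B, and the other neighbours in this order were apart. The length behind the FPKM, read from the steps, was 4626 bases for CDKN2A, against 1283 bases for its longest coding transcript in GENCODE 29. All its GENCODE 29 exons together cover 4329 bases. Fragments counted in exons outside the longest coding transcript would raise a level worked out on 1283 bases. For CDKN3 the length behind the FPKM was 502 bases, against 1070 for its longest coding transcript. With the length of the longest coding transcript in its place, CDKN2A came to 167 ± 9.85 in DMSO and 117 ± 7.66 in BRQ, below CDKN1A at 206 ± 0.996 and 234 ± 1.70, and CDKN3 to 8.48 ± 0.629 and 7.68 ± 1.30, below CDKN2C at 10.3 ± 0.341 and 14.5 ± 1.27. The ratio of a gene's mean FPKM in BRQ and DMSO does not depend on its length, whereas log2(FPKM + 1) and the level set for a test do. Sums, shares and ratios taken over different genes depend on the lengths too.

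The kinases and cyclins that the inhibitors act on mostly rose. Of 13 tested CDK, cyclin and pocket protein genes, 9 rose and 2 fell (84.6%, against 62.1% of all tested genes), with a median log2 fold change of 0.27. The cyclin E genes CCNE2 and CCNE1 and their kinase CDK2 had the largest changes, at log2 fold changes of 2.07, 1.44 and 0.69, and CCND1, which codes for cyclin D1, was the most abundant (186 ± 2.99 to 251 ± 9.64 FPKM, limma adjusted p = 6.66e-06). The direct targets of the INK4 proteins differed in sign: CDK4 rose from 80.6 ± 3.91 to 97.4 ± 3.71 FPKM (adjusted p = 5.56e-04), and CDK6 fell from 13.5 ± 0.624 to 11.3 ± 0.880 FPKM (adjusted p = 0.00831). The CDK6 direction turned with the span trend removed (log2 fold change 0.074, adjusted p = 0.259), and its call was lost without BRQ libraries 1 and 2. CDK4 and CDK6 were chosen after their values were seen.

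MDM2, which codes for the ubiquitin ligase that ARF restrains, fell from 8.32 ± 0.443 to 6.17 ± 0.0438 FPKM (log2 fold change -0.38 ± 0.06, limma adjusted p = 3.91e-04), and was chosen after its values were seen.

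Factors known to act on the inhibitor genes mostly fell. Of 15 tested, 9 fell and 3 rose (80%, against 62.1%; median log2 fold change -0.27). ID1, an inhibitor of ETS factors at the CDKN2A promoter, fell from 96.9 ± 3.52 to 44.6 ± 5.51 FPKM (limma adjusted p = 7.41e-07), and KLF6, an activator of CDKN1A, fell from 94.6 ± 2.46 to 66.0 ± 2.27 (adjusted p = 2.65e-06). MYC, which represses CDKN1A and CDKN2B together with the product of ZBTB17, had a log2 fold change of -0.78, and E2F1, an activator of ARF transcription, one of 1.77.

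Genes of the Polycomb complexes, which silence the INK4 locus, and of the demethylases that oppose them passed about as often as genes at large. Of 11 tested, 4 rose and 3 fell (63.6%, against 62.1% of all tested genes; median log2 fold change 0.13). EZH2, the methyltransferase of the second Polycomb complex, rose from 10.7 ± 0.845 to 21.2 ± 1.55 FPKM (limma adjusted p = 1.52e-06). PHC2, a subunit of the first and the most abundant of the list, fell from 53.8 ± 1.67 to 36.8 ± 1.67 FPKM (adjusted p = 4.25e-06). KDM6A, a demethylase of the EZH2 mark, fell from 7.17 ± 0.246 to 5.10 ± 0.546 FPKM (adjusted p = 6.84e-04), a call lost with the span trend removed (adjusted p = 0.213).

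Of 10 genes for ubiquitin ligases that take p21, p27 and p57 to the proteasome, 6 rose and 3 fell (90%, against 62.1%; median log2 fold change 0.28). DTL, the adaptor that destroys p21 in S phase, rose from 14.99 ± 1.11 to 29.5 ± 0.230 FPKM (limma adjusted p = 3.91e-07). SKP2, the F-box protein for p27, rose from 6.998 ± 0.343 to 11.6 ± 0.324 FPKM (adjusted p = 5.69e-06), SKP1 from 17.0 ± 0.340 to 27.1 ± 2.06 (adjusted p = 5.02e-06) and CKS1B, the cofactor of SKP2 and the most abundant of the list, from 132 ± 2.91 to 173 ± 16.7 (adjusted p = 2.45e-04). The measurements are of RNA, and no inhibitor protein was measured.

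Genes linked to MTAP, in methionine salvage, polyamine synthesis and the PRMT5 complex on which MTAP-deleted cells depend, also passed about as often as genes at large, with 5 of 14 higher and 4 lower (64.3%, against 62.1%; median log2 fold change -0.0031). ODC1, which makes putrescine, rose from 71.3 ± 3.10 to 125 ± 7.02 FPKM (limma adjusted p = 4.73e-07), ADI1, a dioxygenase of the salvage pathway, from 22.1 ± 1.61 to 33.5 ± 1.86 (adjusted p = 1.48e-05), and SRM, the spermidine synthase, from 62.8 ± 2.68 to 76.3 ± 7.07 (adjusted p = 0.00298). MAT2A, which makes S-adenosylmethionine and was the most abundant, fell from 209 ± 2.03 to 184 ± 2.59 FPKM (adjusted p = 0.00106). PRMT5 fell from 58.2 ± 2.65 to 49.1 ± 1.152 FPKM (adjusted p = 9.35e-04), and was chosen after its values were seen.

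**Figure D4:**
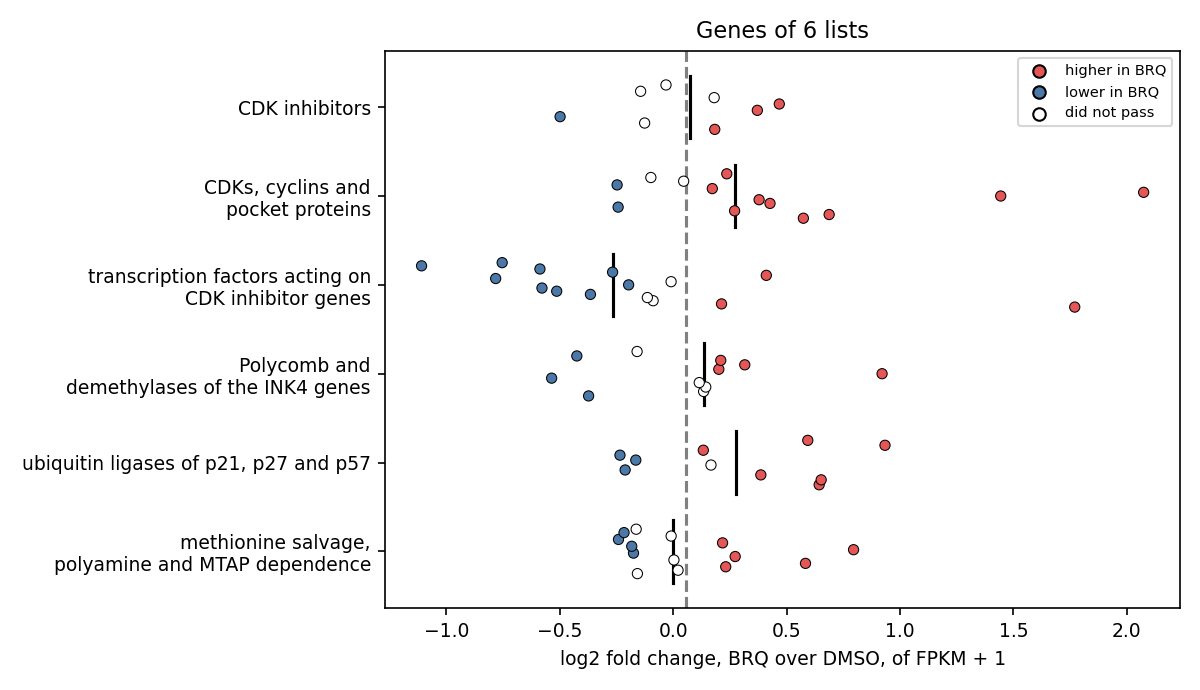
Log2 fold change, BRQ over DMSO, on the FPKM + 1 scale for the tested genes of 6 lists, with red for genes that passed as higher, blue for lower and white for those that did not pass. Black bars are list medians and the dashed line is the median of all tested genes, 0.06. The lists of kinases and cyclins and of ubiquitin ligases have medians right of the line, and that of transcription factors left of it.

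The genes whose pattern over the 6 libraries was most like that of CDKN1A, among 7671 others with a mean of at least 5 FPKM, were TUBB4B, LMF2 and HMGN2, each with a Pearson r of log2(FPKM + 1) over 0.999. Mean levels in DMSO and BRQ were 410 ± 7.92 and 612 ± 13.5 FPKM for TUBB4B, 23.6 ± 0.715 and 52.5 ± 2.01 FPKM for LMF2, and 62.1 ± 1.79 and 127 ± 6.48 FPKM for HMGN2. Most like CDKN2A were GTF3A (65.1 ± 1.65 to 55.2 ± 1.68 FPKM), TM4SF18 (6.97 ± 0.453 to 4.34 ± 0.437) and CAPZB (44.5 ± 1.57 to 34.96 ± 1.20), with r of 0.996 to 0.997. The 6 libraries fall into 3 of each treatment, so any gene that differs between the groups has a high r of one sign, and these values are a description.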

How the data were processed

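The authors deposited FPKM values per gene and library, made from Panc1 libraries with fastp and HTSeq on the build hg38, per the submitters' processing notes; no aligner, annotation, strand setting or read length is known here. All per-library columns were used, and samples were grouped by their titles. Whole fragments, library totals and gene lengths were worked out from the steps between FPKM values: of 9061 genes with over 300 fragments in each library, 99.3% gave a length within 0.02 of a whole base. Testing took genes averaging 1 FPKM or more, on log2(FPKM + 1) in limma 3.58.1 (R 4.3.3; eBayes with trend, two-sided, Benjamini-Hochberg over all tested genes), with treatment as the sole term. Members and lists were chosen with earlier results of these data known. The text names all members, the 3 largest passing changes and the most abundant gene of each list, and every listed neighbour in the table; other names are marked. One further list and one stretch of sequence are not reported here. The fit was repeated with a pseudocount of 0.1, without the filter, with a minimum mean of 5 FPKM, and with 3 other scalings, a replicate block, robust variance, removal of a trend with genomic span, leaving out each library or BRQ libraries 1 and 2 together, and voom on whole fragments, which was chosen after seeing the data. In simulated data with 100 genes changed 1.3-fold and 100 changed 1.5-fold, the fit recovered 72% and 94% of them. Far fewer genes changed there than passed here, so these shares need not hold for the real data. Promoter sequences are RefSeq's (GRCh38.p14), positions and transcripts GENCODE 29's. Figures were drawn with matplotlib 3.10.9.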

Additional observations from a re-analysis of the deposited data

How the results depend on the processing

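The falls and rises of CDKN2A, CDKN2B and CDKN2C kept direction and call under all 17 alternatives. The number of members past the threshold was 4, and 4 to 5 under the alternatives. Under scaling by TPM, by median ratios and by trimmed means CDKN1B passed (log2 fold changes -0.18, -0.18 and -0.18). With the trend with genomic span removed CDKN1A no longer passed (0.077), CDKN1B passed (-0.23), MTAP turned direction and passed (0.17), and MLLT3 (0.10), FOCAD (0.053), CDK6 (0.074) and KLHL9 (-0.094) turned direction; the cause was not tested. Without BRQ libraries 1 and 2, which leaves 1 BRQ library assumed to vary like the DMSO libraries, CDKN2D turned to -0.014 and CDKN3 passed (-0.31). KLHL9, never past the threshold, also turned to -0.026, -0.026 and -0.023 under the 3 scalings. Leaving out 1 library at a time gave log2 fold changes of -0.27 to -0.060 for CDKN3, -0.028 to 0.067 for KLHL9, 0.18 to 0.19 for CDKN1A and -0.55 to -0.45 for CDKN2A, with 6037 to 6404 genes past the threshold in all, against 6638. Under a replicate block 4 members passed, as without it, and 6799 genes in all; MLLT3 no longer passed, and no other call of a gene named here changed. Deviations of same-numbered libraries from their group means were weakly related (r of 0.144, 0.00804 and 0.0584). Those of differently numbered libraries had r from -0.137 to 0.105. The numbers were not taken as pairs, though a weak pairing cannot be told from these values. CDKN1C, CDKN2D and CDKN3 had 31 to 346 fragments a library, and their spread between libraries exceeded counting error (14.7% against 6.44% of the mean for CDKN2D in DMSO).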
